A study of Drosophila melanogaster with 3 samples.

Results

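The glial genes described here are 10 Drosophila melanogaster genes that set glial identity or carry out glial functions: repo, gcm, gcm2, moody, nrv2, Eaat1, alrm, wrapper, Gs2 and loco. They were chosen by name, and a region was given to a gene when its summit lay in the gene body or within 5 kb of it in the dm6 genome build. They are 10 of 13945 protein-coding genes of the annotation used. The regions come from a ChIP-seq experiment, which sequences the DNA recovered with a protein by immunoprecipitation. The protein was acj6, a POU-homeodomain transcription factor best known from olfactory neurons. All 3 biological replicates belong to a single group, made of whole white prepupae of mixed sex from a transgenic line that stably carries acj6 with GFP fused to its C-terminus, immunoprecipitated with an antibody against GFP. There was no second condition, genotype or age, so values are compared between replicates and with all other genes and peaks.

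Glia of the fly wrap neurons, form the blood-brain barrier, take up transmitters and clear debris. Most glia outside the midline are specified by gcm and its neighbour gcm2, related zinc-containing DNA-binding factors, and gcm acts in part through repo, a homeodomain factor found in nearly all of these cells. The remaining members act in mature glia. moody is a G-protein-coupled receptor and loco a regulator of G-protein signalling, both needed for the blood-brain barrier. nrv2 is a beta subunit of the Na+/K+ ATPase with a part in septate junctions, Eaat1 a glutamate transporter, Gs2 a glutamine synthetase, alrm a leucine-rich repeat protein of astrocyte-like glia and wrapper an immunoglobulin-type surface protein of midline glia. White prepupae hold every tissue, and these peak lists cannot tell whether a region was occupied in glia, in neurons or elsewhere. No RNA was measured here.

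Of the 10 genes, 7 had at least 1 summit of the reproducible peak list, which the IDR procedure (irreproducible discovery rate) made from the replicates and which holds 8248 peaks. Under the same rule 53.3% of all protein-coding genes had one. The 7 genes were repo, gcm2, moody, nrv2, wrapper, Gs2 and loco, while gcm, Eaat1 and alrm had none. Together they held 19 summits, of which 8 at moody, wrapper, Gs2 and loco had the gene's own transcription start site (TSS) as the nearest one. The other 11 lay closer to the TSS of a neighbour, and at repo, gcm2 and nrv2 every summit was of that kind. With the own TSS required to be nearest, 4 members were called, against 25.9% of all genes.

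DNA around the strongest IDR summit is shown for 6 of these genes, so that the letters under each region can be read beside its rank. The strand is the plus strand of dm6, 5′ to 3′, and capitals mark matches to the motifs described further on. The windows were chrX:2050174-2050374 for moody, chr3R:22624835-22625035 for loco, chrX:11423261-11423461 for Gs2, chr2L:6787003-6787203 for nrv2, chr3R:18242160-18242297 for repo and chr2L:9616718-9616835 for gcm2. The windows of repo and gcm2 are cut short where an annotated transcript begins.
moody: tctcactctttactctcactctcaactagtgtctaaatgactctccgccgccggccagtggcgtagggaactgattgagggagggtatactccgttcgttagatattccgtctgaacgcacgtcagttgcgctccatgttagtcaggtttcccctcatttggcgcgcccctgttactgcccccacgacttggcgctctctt
loco: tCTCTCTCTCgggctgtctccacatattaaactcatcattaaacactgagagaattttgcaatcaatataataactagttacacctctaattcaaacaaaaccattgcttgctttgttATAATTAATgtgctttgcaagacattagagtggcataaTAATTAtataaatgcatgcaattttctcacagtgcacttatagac
Gs2: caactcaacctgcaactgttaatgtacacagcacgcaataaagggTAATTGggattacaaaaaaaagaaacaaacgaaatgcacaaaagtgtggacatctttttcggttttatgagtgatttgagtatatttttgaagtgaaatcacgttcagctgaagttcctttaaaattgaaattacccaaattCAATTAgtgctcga
nrv2: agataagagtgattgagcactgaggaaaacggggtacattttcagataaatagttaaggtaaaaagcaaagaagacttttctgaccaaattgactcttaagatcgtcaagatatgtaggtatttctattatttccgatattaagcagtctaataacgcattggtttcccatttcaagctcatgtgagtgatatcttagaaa
repo: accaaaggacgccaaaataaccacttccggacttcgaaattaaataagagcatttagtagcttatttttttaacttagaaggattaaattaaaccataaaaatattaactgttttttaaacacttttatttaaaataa
gcm2: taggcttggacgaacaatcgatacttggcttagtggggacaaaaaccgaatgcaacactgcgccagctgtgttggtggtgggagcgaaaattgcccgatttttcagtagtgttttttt
The moody window reaches from its own promoter into upstream DNA and is the richest in G and C of the 6, at 54.2%. The repo window, which lies at the promoter of a neighbour, is at 24.6%, counted over its shortened length. Only the windows of Gs2 and loco hold letters in capitals.

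Among the fate-setting factors, repo had the most summits and gcm the fewest. repo (FBgn0011701) lies on the plus strand of chr3R:18236192-18239602, in a span of 3411 bp with 1 annotated TSS. Its IDR summits were at position 18242197 with a signal of 100.6 and rank 7759, and at position 18243826 with a signal of 97.2 and rank 8013, rank 1 being the strongest of the 8248 peaks. The first was 38 bp upstream of the CG7156 TSS and the second in intron 1 of 14-3-3epsilon, 1139 bp downstream of a TSS of that gene. Both were past the 3′ end of repo, 2595 and 4224 bp from the gene body, and neither the gene body nor the 5 kb upstream of it held any of the 30000 pooled regions. The strongest region at repo ranked 6814, 7684 and 5606 in replicates 1, 2 and 3 (mean 6701, SD 1044, n = 3). In replicate 1 that region was the intronic one, and in the other 2 replicates the one at CG7156. The summit at CG7156 had no summit within 100 bp in replicate 1. The intronic one ranked 6814, 11724 and 7122 in replicates 1, 2 and 3.

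gcm (FBgn0014179; chr2L:9579498-9581745, minus strand) and gcm2 (FBgn0019809; chr2L:9608562-9612706, plus strand) are transcribed away from each other, with 26816 bp between them. gcm had no IDR summit. Its strongest pooled region ranked 9321, below the length of the IDR list, and lay 159 bp downstream of the TSS of Mtpalpha, the next gene but one past its 3′ end. Replicates 1 and 2 also had their strongest region within 500 bp of that start, at ranks 7911 and 9029, and replicate 3 had no region in the window at all. The replicates thus differed on whether the gcm window held anything.

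gcm2 had 1 IDR summit, at position 9616818, with a signal of 94.8 and rank 8192. It was 18 bp upstream of a TSS of GlcAT-S, a glycosyltransferase gene, and 4112 bp past the end of gcm2. A replicate summit within 100 bp ranked 9234, 6805 and 12904 in replicates 1, 2 and 3, so that only replicate 2 placed it among its 8248 strongest. Of its 6 pooled regions, the other 5 were below the length of the IDR list.

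Between gcm and gcm2 lay 2 IDR summits, both outside the 5 kb windows. One was 9968 bp upstream of gcm2, at position 9598594, with rank 5517 and with ranks 7239, 3924 and 7011 in the replicates. The other, at position 9595029, had rank 7840, was 13284 bp upstream of gcm, and ranked 12326 and 9521 in replicates 1 and 3 with no summit within 100 bp in replicate 2. The nearest TSSs were those of CG4382, at 2278 bp, and CG3841, at 5399 bp. IDR summits in this interval came to 0.746 per 10 kb, beside 0.715 per 10 kb over the windows of all genes.

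**Figure D1:**
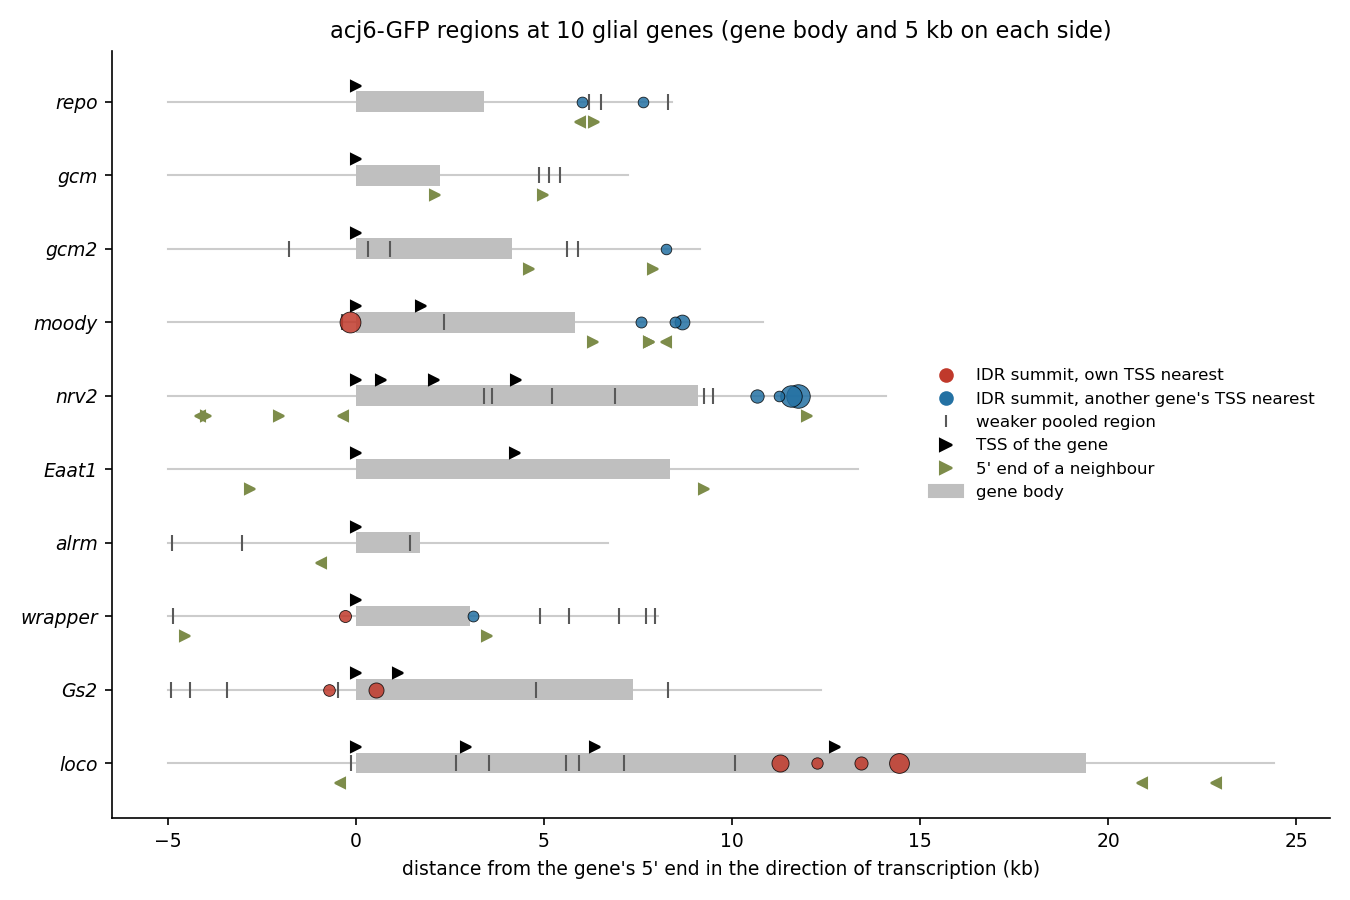
Regions at the 10 glial genes, drawn by distance in kb from each gene's 5′ end in its direction of transcription, with the gene body in grey. Circles are IDR summits with area growing with signal, red where the gene's own TSS is nearest and blue where another gene's is, ticks are weaker pooled regions, and triangles are starts of the gene (black) and of its neighbours (green). The red circles sit at moody, wrapper, Gs2 and loco, and the circles of repo, gcm2 and nrv2 lie past the 3′ end.

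The barrier genes moody, loco and nrv2 held 12 of the 19 summits and the strongest ones. Those at nrv2, the strongest of all included, and all but the strongest at moody had another gene's TSS nearest. loco and nrv2 also had the longest windows of the members, 29420 and 19093 bp. moody (FBgn0025631; chrX:2044292-2050120, minus strand) had a summit at position 2050274, 154 bp upstream of its own TSS, with a signal of 543.8 and rank 782. Its ranks in replicates 1, 2 and 3 were 671, 769 and 760 (mean 733, SD 54), close together and all among the strongest 824 of 30000 regions. The summit also lies inside CG4313, a gene on the other strand that runs through all of moody.

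The other 3 summits at moody were in a cluster past its 3′ end and near TSSs of other genes. The one at position 2041445 (signal 243.2, rank 2864) was inside usp, which encodes the partner of the ecdysone receptor, and 133 bp upstream of an internal TSS of that gene. Those at positions 2042549 (rank 7259) and 2041645 (rank 7405) were 238 bp upstream of a TSS shared by usp and the alpha-actinin gene Actn and 223 bp upstream of CG4313. Replicates spread widely there: for rank 7259 they gave 6846, 6515 and 13122, and for rank 7405 they gave 5749, 11578 and 11690. The peaks of ranks 2864 and 7405 overlap, at positions 2041235-2041654 and 2041435-2041854.

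loco (FBgn0020278; chr3R:22619968-22639387, minus strand) has the longest span of the members, 19420 bp, and 4 annotated TSSs. All of its 4 summits were inside introns and had a TSS of loco as the nearest. The strongest, at position 22624935 with a signal of 481.2 and rank 1009, was 1699 bp downstream of the TSS nearest the 3′ end, and ranked 1284, 897 and 1040 in the replicates (mean 1074, SD 196). The next, at position 22628103, was 1469 bp upstream of the same TSS, with rank 1728 and replicate ranks of 1882, 2042 and 1499. The remaining summits, at ranks 4200 and 6622, were 690 bp downstream and 502 bp upstream of it. The 4 summits thus flank 1 internal promoter, and the other 3 starts of loco had no IDR summit as near. Weaker pooled regions lay near those starts, the strongest at rank 10593, and replicate 3 ranked a region there 8170.

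nrv2 (FBgn0015777; chr2L:6789770-6798862, minus strand) lies next to its paralog nrv1, which encodes another beta subunit of the same pump and is read in the same direction. Its 4 summits were all in the gap between them, past the 3′ end of nrv2 and upstream of nrv1. The strongest, at position 6787103, had a signal of 704.9 and rank 457, and replicate ranks of 372, 413 and 445 (mean 410, SD 37). It was 242 bp upstream of the nrv1 TSS and 7496 bp from the nearest TSS of nrv2. A second summit, 441 bp upstream of nrv1, had a signal of 575.1 and rank 706, and replicate ranks of 802, 910 and 871. Those 2 were stronger than any other of the 19, and they are counted for nrv2 by the distance rule alone. Their deposited intervals, chr2L:6786973-6787395 and chr2L:6786973-6787397, are nearly the same. They are thus 2 summits of about the same stretch, counted here as 2 of the 19. The other summits, 1334 and 760 bp upstream of nrv1, had ranks 3999 and 8006.

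Of the 3 genes for glutamate handling and astrocyte-like glia, only Gs2 had IDR summits. Gs2 (FBgn0001145; chrX:11422832-11430197, plus strand) had its stronger summit in intron 1 at position 11423361, 529 bp downstream of its first TSS, with a signal of 254.2 and rank 2704. Replicates 1, 2 and 3 ranked it 3380, 2903 and 2215 (mean 2833, SD 586). The weaker summit was 709 bp upstream of the same TSS, with a signal of 129.5 and rank 6051, and its replicate ranks of 7115, 6201 and 7140 were all within the length of the IDR list.

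Eaat1 (FBgn0026439; chr2L:9333567-9341925, plus strand) had no region at all in the pooled list and none in replicate 1. Replicates 2 and 3 had their strongest region there at ranks 27673 and 27976 of 30000, and these lay at different places, near the start of CG3748 and in Eaat1. The nearest IDR summit was 45543 bp downstream, 79 bp from the TSS of the aldehyde dehydrogenase gene Aldh. Among all protein-coding genes 5.54% were at least as far from an IDR summit, and the median was 4258 bp.

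alrm (FBgn0039332; chr3R:25381065-25382781, minus strand), a short gene inside the much longer Fur1, had a strongest pooled region of rank 16622 and replicate ranks of 15969, 21297 and 19748 (mean 19005, SD 2741). The replicate ranks are not those of a single region. In replicates 1 and 3 the strongest region lay at positions 25387663 and 25387684, and in replicate 2 at 25385768. Near the place shared by replicates 1 and 3, replicate 2 had a region of rank 23574. All these ranks were far below the length of the IDR list. The nearest IDR summit, of rank 6230, was 5897 bp upstream, and 43.2% of genes were at least as far from one.

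**Figure D2:**
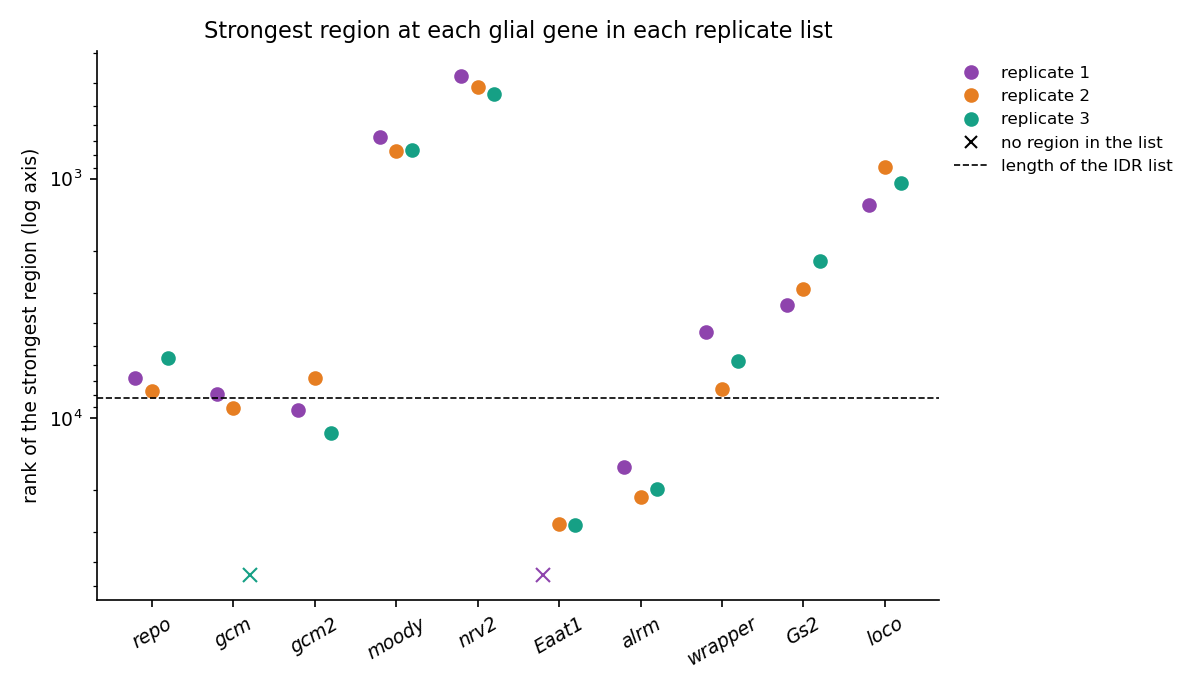
Rank of the strongest region in each gene's window in replicates 1, 2 and 3 (log axis, strongest at the top; crosses mark replicates with no region, and the dashed line is rank 8248, the length of the IDR list). The 3 replicates of moody lie between 671 and 769 and those of nrv2 between 372 and 445, while those of alrm, and of Eaat1 where it had a region, lie below the line.

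wrapper (FBgn0025878; arm 2R, positions 22379637 to 22382675, plus strand) was the only midline-glia gene of the list. Its first summit, at position 22379339, was 298 bp upstream of its own TSS, with a signal of 139.9, rank 5566 and replicate ranks of 4357, 7527 and 5802 (mean 5895, SD 1587). The second, 73 bp past its 3′ end, was 386 bp upstream of CG13506 and had rank 7548. In the replicates the second one ranked 8522, 8562 and 9750, so that it was in the IDR list but in none of the replicates' 8248 strongest regions.

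Ordered by their strongest IDR summit the members ran nrv2, moody, loco, Gs2, wrapper, repo and gcm2. The replicate ranks of nrv2, moody, loco and Gs2 did not overlap, so that every replicate placed these 4 in the same order. wrapper, repo and gcm2 came after them in every replicate, overlapped with one another and cannot be ranked among themselves. Without the summits nearer to nrv1, nrv2 would have no IDR summit. The strongest region in its gene body ranked 9429 in the pooled list. In replicates 1, 2 and 3 the strongest there ranked 6169, 10126 and 13855, so only replicate 1 placed it among its 8248 strongest.

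The 19 summits spread over the whole IDR list, with a median rank of 5566. The strongest 10% of the list, 824 peaks, held 3 of them, at moody and at the pair of nearly the same interval upstream of nrv1. The stronger 4124 peaks held 8, and 8 came after rank 6186, in the weakest 25% of the list. The 8 summits nearest to the gene's own TSS had a median rank of 3452 (782 to 6622), and the 11 nearest to another gene's had a median of 7405 (457 to 8192).

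**Figure D3:**
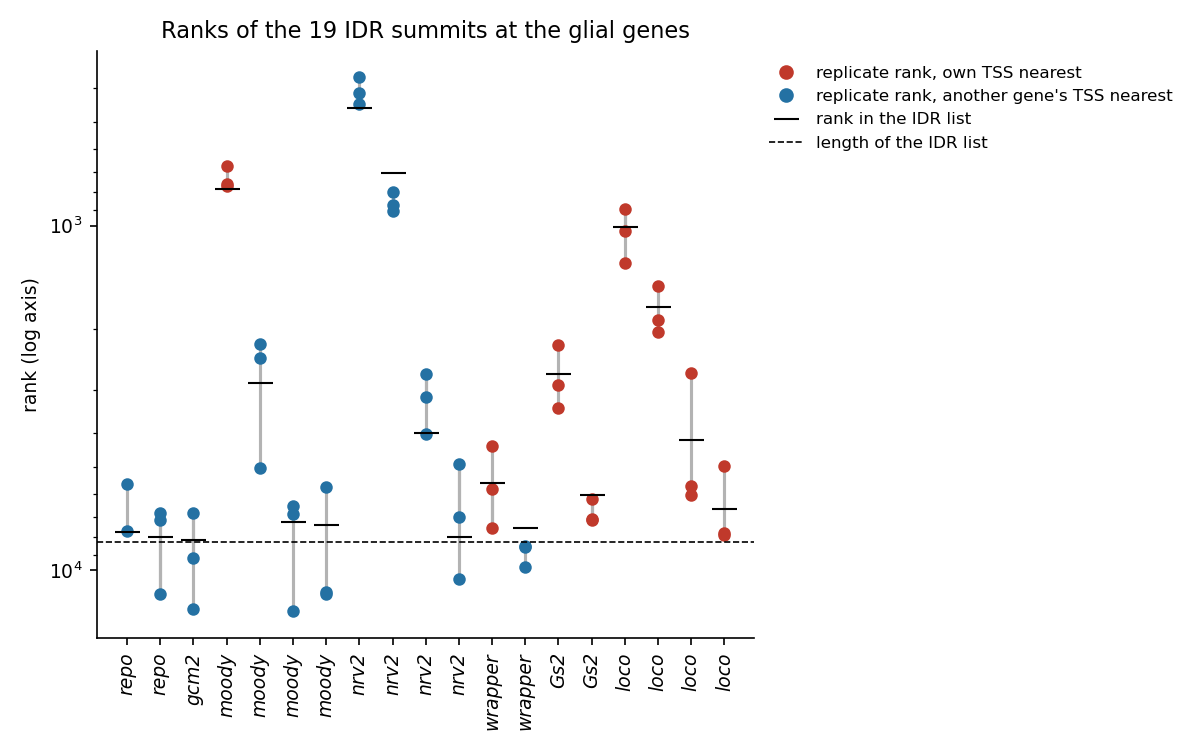
Rank of each of the 19 IDR summits in the IDR list (black bar) and of the strongest summit within 100 bp in each replicate (points, log axis, strongest at the top, with the dashed line at rank 8248). Red summits have the gene's own TSS nearest and all of their points lie above the line, while several blue ones at repo, gcm2, moody, nrv2 and wrapper have points below it.

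The groups with the own or another gene's TSS nearest also differed in how often replicates repeated a peak. A peak was counted as found in a replicate when 1 of the replicate's 8248 strongest regions covered at least 50% of its length. All 8 peaks nearest to their own gene's TSS were found in all 3 replicates, and 2 of the other 11 were. The 8 also ranked higher in the IDR list (median 3452, against 7405). All IDR peaks were not split in this way, and whether the difference goes with rank alone was not tested. In all 10 of 19 were, or 52.6%, beside 70.6% of all IDR peaks. In single replicates 68.4%, 78.9% and 78.9% of the 19 were covered (75.4% ± 6.08, SD, n = 3), against 85.7%, 87.3% and 88.2% of all IDR peaks. When a replicate summit within 100 bp was asked for in place of coverage, 12 of 19 were found in all 3 replicates, or 63.2%, beside 68.5% of all IDR peaks. The 2 peaks added by this rule were the 2 strongest upstream of nrv1, which were covered in 1 replicate each and had a summit in all 3. Their intervals are nearly the same and their replicate ranks ran from 372 to 910, so low coverage there does not mean a low rank. Among the 11 peaks with another gene's TSS nearest, 4 were found in all 3 replicates by this rule.

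Replicates also differed little in the number of members they reached. Their 8248 strongest regions had a summit at 7, 7 and 6 members in replicates 1, 2 and 3 (6.67 ± 0.577, SD, n = 3), under rules that called 55.5%, 53.5% and 55.4% of all genes. The genes were not all the same, since gcm was reached in replicate 1 only and gcm2 in replicate 2 only. The summits of these strongest regions at the members numbered 18, 16 and 16 (16.7 ± 1.15). Any of the 30000 pooled regions was found at 9 members, all but Eaat1, and at 78.0% of all genes. The full replicate lists held 56, 54 and 59 regions at the members (56.3 ± 2.52). Per 10 kb of window this was 3.4, 3.28 and 3.58 regions, against 2.31, 2.18 and 2.36 over the windows of all genes, and IDR summits came to 1.15 against 0.715. These densities were not compared with those of genes of the members' length. Of the 19 IDR summits in them, 11 had another gene's TSS nearest.

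The share of genes with a summit went with gene length and with the window. The members' median span was 4987 bp, against 2166 bp for all genes, and 9 of 10 were longer than that. Genes were put into 5 classes of equal size by span, and from the shortest to the longest class the share with an IDR summit rose from 38.7% to 72.3%. The mean number of IDR summits per gene rose with it, from 0.671 to 2.51. Of the members 2, 4 and 4 lay in the longer classes, whose means were 0.916, 1.11 and 2.51. The members had 1.9 IDR summits each. Adding up the share in each member's own length class gave 6.19 genes, beside the 7 observed, and 3.57 for summits with the own TSS nearest, beside 4. The number of members with a summit was therefore close to that of genes of their length, and nothing particular to glial genes is read from it.

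A narrower window left fewer members. In the gene body alone only Gs2 and loco had a summit (14.7% of all genes, with 2.63 members from the length classes), and with 1 kb added moody and wrapper joined them (31.8%). With 2 kb, nrv2 made 5 (38.5%), and with 10 kb there were 9, gcm and alrm included (68.9%). Eaat1 had none under any of these rules. Of the summits counted at 5 kb, the farthest from a gene body was the second of repo, at 4224 bp, and of the members without a summit alrm had one closest, at 5897 bp. A summit within 1 kb of an annotated TSS of the gene was present at moody, wrapper, Gs2 and loco, 4 of 10 members, against 24.4% of all genes.

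**Figure D4:**
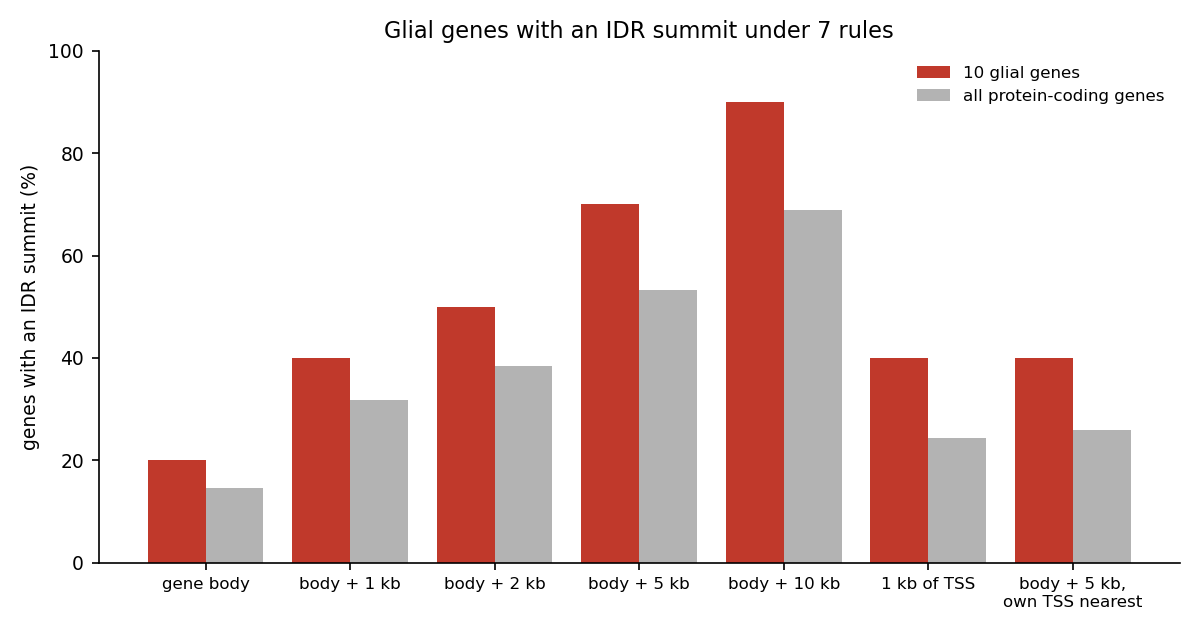
Share of the 10 glial genes (red) and of all protein-coding genes (grey) with an IDR summit under 7 rules. The share of members ran from 20% in the gene body to 90% with 10 kb added, and the grey bars rose with it from 14.7% to 68.9%.

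By place, 10 of the 19 summits were within 500 bp of a protein-coding TSS (52.6%, beside 29.8% of all IDR summits). Of these 10, 2 were at the member's own TSS, at moody and wrapper, and 8 at a neighbour's. Another 6 were in introns (31.6%, beside 45.5%) and 3 outside genes (15.8%, beside 23.4%), and none was in a coding exon or an untranslated region. The 19 lie in or within 5 kb of a gene by rule, and all IDR summits were not limited in that way. These shares are therefore not like for like. Relative to the members, 5 were in the gene body, 3 in the upstream flank and 11 in the downstream flank.

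The sequence under the 19 summits was described over 100 bp on each side of the summit base. Their G and C content was 37.7% (SD 7.39 over the 19 windows, from 27.4% to 54.2%), beside 34.0% (SD 6.26) for all IDR summits and 40.5% for windows 1 kb to the right of the same 19. Over the strongest regions of each replicate it was 38.5%, 37.2% and 37.1% (37.6% ± 0.812, n = 3).

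Exact matches on both strands were counted for 8 motifs. ATAATTAAT, a core bound by POU factors of the class to which acj6 belongs, was present at 1 of the 19 summits and at 1.83% of all IDR summits. That was the strongest loco summit, with the match centred 22 bp from it, in capitals in the printed window. Another site of that class, ATTAATGAG, was at none of the 19 and at 0.364% of all. ATGCAAAT, the octamer of POU factors, was at the repo summit of rank 8013 and the nrv2 summit of rank 3999, and at 3.18% of all.

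ATGCGGG, the site of gcm, was at none of the 19 and at 0.63% of all. CAATTA, a homeodomain core of the kind repo binds, was at 3 of the 19, at moody, Gs2 and loco, and at 19.4% of all. TAATTA, which lies within ATAATTAAT and is counted there too, was at 3, at moody and loco, and at 18.4% of all. TATCGATA, the site of the promoter factor DREF, was at none and at 1.76% of all, and GAGAGAG was at 2, at repo and loco, and at 2.9%. With 19 windows, 1 match is 5.26%, so these counts do not separate the members from the list as a whole, and no match says only that these letters are not in the window.

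A further 36 genes of glial biology were looked up in the same way. IDR summits were present at 24 of them (66.7%, beside 53.3% of all genes), and the shares of their length classes added up to 24.0. The own TSS was nearest for 16 (44.4%, with 15.6 from the length classes). In the gene body alone 15 had a summit (41.7%, beside 14.7% of all genes), and the length classes added up to 13.2 there. By role, a summit was present at 6 of 7 transcription factors, 3 of 3 engulfment genes, 5 of 5 signalling and surface genes and 2 of 2 matrix genes. The length classes added up to 4.85, 2.02, 3.46 and 1.23 for these roles. A summit with the own TSS nearest was present at 5, 1, 4 and 0 of their genes, and at 25.9% of all genes. That share ran from 12.4% in the shortest length class to 51.9% in the longest. It was not added up by role, so roles are not compared by their own-TSS counts. Of the septate junction and barrier genes 6 of 11 had a summit, beside 7.19, and 5 with the own TSS nearest. Of the genes of transport and metabolism 2 of 8 had a summit, and 1 with the own TSS nearest. For the last group the length classes added up to 5.27, and the 6 without a summit included Eaat2, the paralog of Eaat1.

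**Figure D5:**
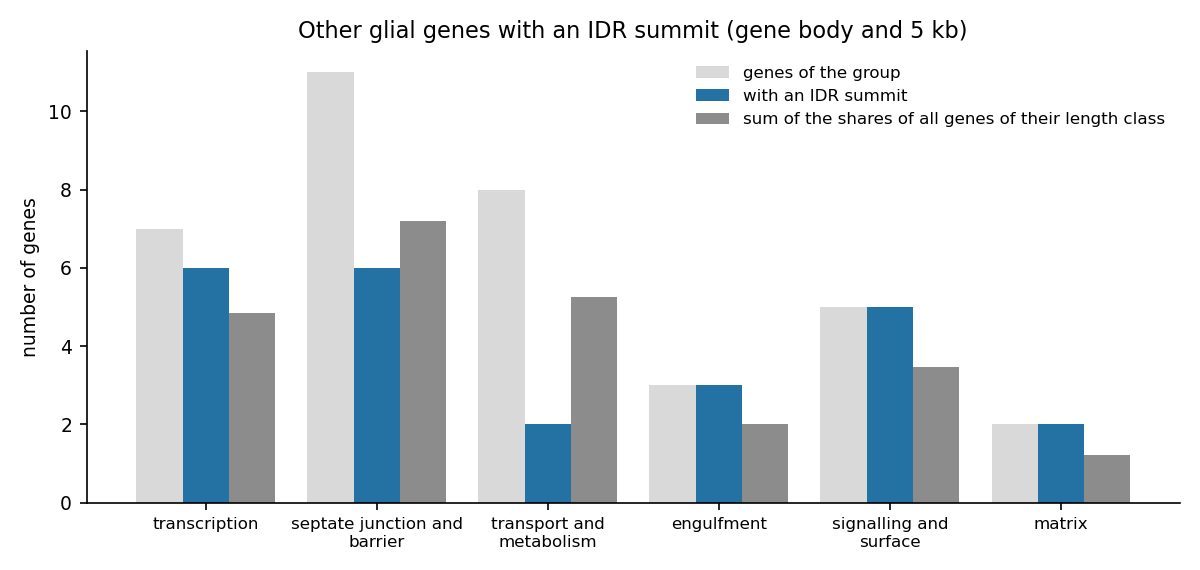
Number of genes, number with an IDR summit in the gene body or within 5 kb, and the sum of the shares of all genes of their length class, for 36 other glial genes in 6 roles. Transport and metabolism has 2 of 8 beside 5.27, and transcription 6 of 7 beside 4.85.

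The strongest summits at these genes were at glec, a carbohydrate-binding surface protein of midline glia, with rank 356 and replicate ranks of 425, 448 and 265, and at nrv1, with the summit of rank 457 already described. Next came ced-6, an engulfment adaptor, at rank 523, the zinc-finger homeodomain factor zfh1 at rank 559, the ETS factor pnt at rank 622 and the engulfment kinase Shark at rank 734. At pnt, which acts in glia downstream of receptor tyrosine kinases, 15 summits lay in the window and all had its own TSS nearest. The best summits of glec and Shark were nearer to Gr93d and mrj. Of the members' paralogs, nrv1 had 4 summits, Eaat2 none and the glutamine synthetase Gs1 a single one, at rank 7730 and nearest to CG3164.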

How the data were processed

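Transcription factor ChIP-seq peak lists of 3 biological replicates were analysed. The labels do not say whether they came from separate cultures, so the spread between them may be technical. For dm6 the authors deposited a list of 30000 regions per replicate, a pooled list of 30000 and an IDR list of 8248, which here equals the 8248 strongest pooled regions. The text files deposited with the lists name 1 control file for all replicates. The sources used here do not give the aligner, the peak caller or the IDR threshold. The signal value of each region is the one the authors deposited. It serves here only to rank the regions of 1 list, since the lists share no scale. Depth is unknown, since the lists give no counts. The dm3 lists were not used, and no coordinates were converted.

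Summits were set against the 13945 protein-coding genes of Ensembl release 115 in Release 6 coordinates, and sequences were read from NCBI's Release 6 genome. A replicate rank of a summit is that of the strongest replicate summit within 100 bp. Genes were put into 5 classes of equal size by span. Bases of annotated untranslated regions were left out of the printed windows. Named genes are all members, every neighbour whose TSS is nearer to a member's summit, the 6 other glial genes with the strongest peak and the members' paralogs. Outside this rule, chosen after their values were seen, stand genes that place a summit or a member. They are Aldh, Fur1, Mtpalpha, CG3748, CG4382, CG3841, Gr93d, mrj and CG3164. Members and lists were chosen with earlier results of these data known. There is 1 group, so no p-values were computed, and counts stand beside the share of all genes. Calculations used Python 3.11.15, numpy 2.4.6, pandas 2.3.3 and matplotlib 3.10.9, and were tested on simulated peak sets. Alternatives covered the window, the TSS distance, the stronger peaks, the overlap, the assignment to the own TSS and leaving out each replicate.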

Additional observations from a re-analysis of the deposited data

How the results depend on the processing

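Each value, except the counts of the 19 summits, stands beside that of all genes or all IDR peaks under the same setting, in brackets. Members with an IDR summit, 7 of 10 (53.3%), became 2 in the gene body (14.7%), 4 with 1 kb (31.8%), 4 in the 4124 strongest peaks (38.6%) and 4 with the own TSS nearest (25.9%). When a replicate was left out and coverage in both others asked for, 5 to 6 were left (45.9% to 46.9%). The main count asks for no coverage, so fewer peaks enter there. Without replicate 1 or 2 gcm2 left, and without replicate 3 both repo and gcm2 did. The 19 summits became 5, 9 and 11 with 0, 1 and 2 kb added, 8 in the 4124 strongest, 8 with the own TSS nearest, 10 when covered in all 3 replicates and 11 to 12 with a replicate left out. The other glial genes, 24 (53.3%), became 15 in the gene body (14.7%). Members with a summit near a TSS, 4 (24.4%), became 2 within 500 bp (20.4%) and 2 in the 4124 strongest (16%). The share found in all replicates, 52.6% (70.6%), was 68.4% with an overlap of 1 bp (76.6%), 42.1% with 80% (46.8%), 75% in the 4124 strongest (91.0%), 57.9% to 63.2% with 1 replicate left out (76.6% to 78.3%), and 63.2% by summits within 100 bp (68.5%), an alternative chosen after seeing the data. The gap to all IDR peaks thus varied with the setting and was smallest at 80% coverage and by summits. The G and C content, 37.7% (34.0%), was 36.7% over peaks in all 3 replicates (33.7%). The causes were not tested. The pooled list gives the same counts by construction. Unknown depth limits what a missing region at gcm, Eaat1 or alrm shows.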
